A study of Mus musculus with 6 samples.

Results

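NIH3T3 fibroblasts that had received extracellular vesicles of MDA-MB-231 cells were compared with NIH3T3 fibroblasts that had received the carrier, phosphate-buffered saline (PBS). NIH3T3 is an immortalised mouse embryonic fibroblast line, and MDA-MB-231 is a human triple-negative breast cancer line. The members are the 12318 genes, of 20475 in the table, that held a value of at least 10 normalised reads in at least 2 of the 4 libraries, 2 with PBS and 2 with MDA-MB-231 vesicles (written EV below). Just inside that limit lay Nutm1 and Plac1, each with a second-highest value of 10.1, and just outside it Als2cl and Rhox2a, with second-highest values of 9.92 and 9.96. Of the members, 11860 were at 10 or more in all 4 libraries, 86 were so in both PBS and in neither EV library, and 56 in both EV and in neither PBS library.

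All groups were the same line at passage 5, grown in DMEM with fetal bovine serum, and RNA was taken 48 h after treatment. The labels give 1x10e8 vesicles in PBS for 1.25x10e5 recipient cells. A second vesicle group of 2 libraries received vesicles of MCF10A, a human mammary epithelial line that forms no tumours, and is used below as the other vesicle control. No further drug, genotype or animal is named for any group, the recipient is a single line in culture, and nothing in the labels says that the 2 libraries of a group came from separate cultures, so that p-values measure the spread between these libraries only, which may be technical.

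Extracellular vesicles are membrane-bound particles, among them exosomes and shed microvesicles, that cells release and that other cells can bind or take up with their protein, lipid and RNA. Fibroblasts make and turn over the extracellular matrix and release cytokines, chemokines, prostaglandins and growth factors, and in tumours they are among the cells that meet vesicles of cancer cells. Their secretory load passes through the endoplasmic reticulum (ER), where chaperones fold new proteins, and their division follows a gene programme that is read out in turn at the start of DNA synthesis and at mitosis.

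The 6 libraries held 22451173 to 29315530 reads in genes and 14553 to 14856 genes with a read. Values are the authors' normalised reads, adjusted to a common library size, so levels are compared within a gene and not between genes of different length. Changes are differences in log2(value + 1) between group means with the standard error (SE) of limma's fit over all 6 libraries, and a gene rose or fell where its Benjamini-Hochberg adjusted p was under 0.05 over the 15025 genes tested. Of 13 fibroblast markers 12 were members, with a summed level of 491501 and 491695 normalised reads with PBS and 430727 and 420574 with MDA-MB-231 EV. Fewer cells of a kind and less RNA per cell cannot be told apart in such bulk libraries. Which strand was counted or how reads of near-identical copies were split is not given in the sources used here, so members of such families (tubulins, actin, ferritin, Saa and Stfa genes) are uncertain.

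Of the 12318 members, 2656 rose and 2494 fell with MDA-MB-231 EV against PBS, which is 21.6% and 20.2% of them, while over all tested genes 17.9% were called higher and 16.9% lower. Most of these differences were small. The called rises had a median of 1.21-fold and the called falls of 1.23-fold, and 58.6% of all called members changed by less than 1.25-fold. Large changes were mostly falls: 193 members (1.57%) fell and 46 (0.373%) rose by at least 2-fold, against 1.61% and 0.519% of all tested genes called so. Many had low values: 93 of these falls and 32 of the rises had a mean of 10 to 100, and 13 and 7 a mean under 10. By at least 4-fold, 29 members fell and 1 rose. The middle of the distribution lay near 0, with a median log2 change of 0.012, a 5th percentile of -0.58 and a 95th percentile of 0.48. Of the 7168 members that were not called, 5585 had a 95% interval that lay within 1.5-fold either way. The EV and PBS libraries did not overlap in 8822 of the 12318 members, called or not. Rescaling to equal library totals gave 3955 rises and 1849 falls, so that 68.1% of the calls were higher in place of 51.6%. Without the first EV library 1584 members rose and 22 did so by at least 2-fold, and without the second 1734 and 20.

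In the values as scaled by the authors, the balance of rises and falls went with the level of the gene. Among the 355 members with a mean of at least 10000 normalised reads 43.1% fell and 26.5% rose, and 12 fell and 0 rose by at least 2-fold. Among the 4978 members with a mean of 100 to 1000 the order was the other way, with 21.5% higher and 15.1% lower. Below a mean of 100 the SE was larger, with a median of 0.274 for means of 10 to 100, and 5.31% rose and 8.44% fell. The median log2 change of the 355 members was only -0.042. Equal library totals moved the median over all members from 0.012 to 0.078. The balance by level was not counted under other scalings.

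**Figure D1:**
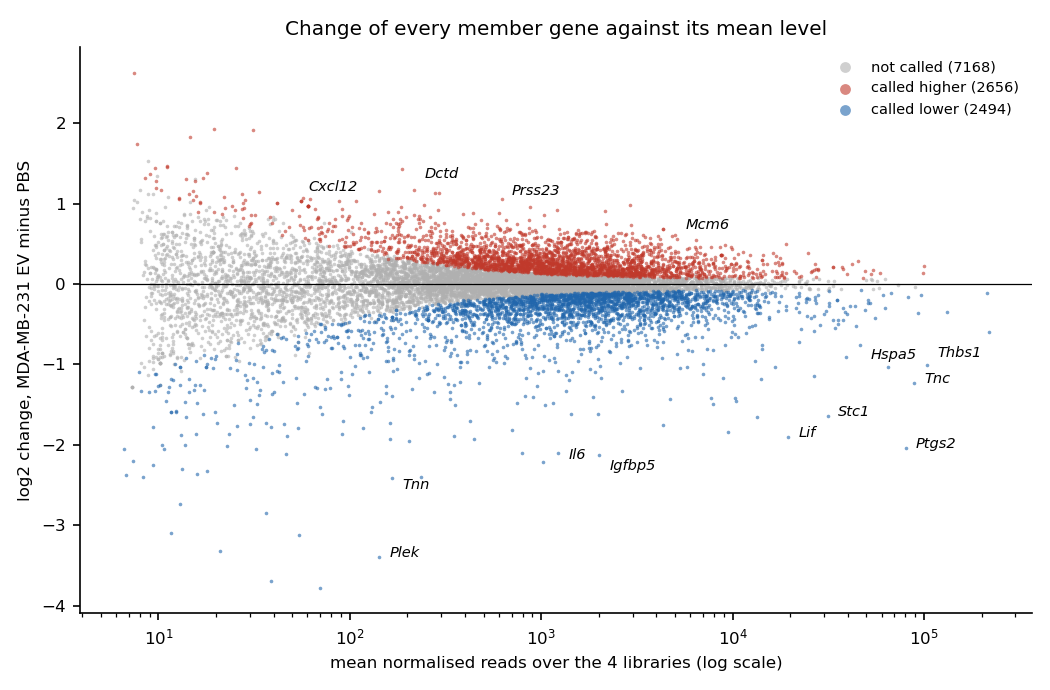
Log2 change with MDA-MB-231 EV against PBS (vertical axis) plotted against the mean of the 4 libraries in normalised reads (horizontal axis, log scale) for the 12318 members, with rises in red (2656), falls in blue (2494) and uncalled genes in grey (7168). The cloud reaches further down than up, to a change of -3.39 for Plek among genes above a mean of 100, and Ptgs2, Tnc, Thbs1 and Stc1 fall at the right-hand end.

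The deepest fall among members with a mean of at least 100 was that of Plek (chromosome 11), which encodes pleckstrin, a protein kinase C substrate best known from platelets and leukocytes. It held 255 and 266 normalised reads with PBS, 99.0 and 108 with MCF10A EV and 24.4 and 23.5 with MDA-MB-231 EV, so that the 3 groups did not overlap. The change was -3.39 ± 0.16 (SE), 10.5 times lower (limma adjusted p = 5.44e-10). Next came Tnn (chromosome 1), the matrix protein tenascin-N, with 286 and 276 normalised reads with PBS and 54.8 and 49.1 with EV, a change of -2.42 ± 0.14. Stfa3, a stefin that inhibits cysteine proteases, went from 385 and 408 to 83.2 and 66.3. The 2 EV libraries of Stfa3 differed from each other more than those of Plek, yet both lay below every library of the other groups.

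The other 12 of the 15 deepest falls covered a matrix protease, secreted signals, receptors and transcription factors. Mmp13 (chromosome 9), collagenase-3, fell from 1714 and 1653 normalised reads to 399 and 330.2 (-2.21 ± 0.076). Igfbp5 (chromosome 1), which binds insulin-like growth factors, fell from 3365 and 3192 to 811 and 691 (-2.13 ± 0.059). Il6 (chromosome 5) and Lif (chromosome 11), cytokines that signal through the shared receptor chain gp130, and Ptgs2 (chromosome 1), the inducible cyclooxygenase of prostaglandin synthesis, are described with their families below. The remaining 7 were the receptor gene Gpr35 (-2.10), the G protein gamma subunit gene Gngt2 (-1.96), the nuclear receptor genes Nr4a3 (-1.93) and Nr4a1 (-1.84), the oxysterol-binding protein gene Osbp2 (-1.93), the ubiquitin ligase gene Rnf125 (-1.89) and the phospholipase gene Pla1a (-1.82). In all 15 the MCF10A EV libraries lay between the PBS and the MDA-MB-231 EV libraries. In 14 of the 15 MDA-MB-231 EV was called lower than MCF10A EV, with Osbp2 as the exception (log2 difference -0.41, limma adjusted p = 0.0672). Over all 12318 members 1493 were called so. The 15 were picked for low values in the same MDA-MB-231 EV libraries, so these counts are a description only.

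Rises were shallower. Nr1h5 (chromosome 3), a nuclear receptor of the farnesoid X receptor family, rose from 123 and 80.7 normalised reads to 290.4 and 252, a change of 1.43 ± 0.17 with a wide gap between its PBS libraries. Dctd (chromosome 8), the deoxycytidylate deaminase that feeds thymidylate synthesis, rose from 141 and 125 to 305 and 294 (1.17 ± 0.11, 2.25-fold). Cxcl12 (chromosome 6), the chemokine that binds the receptor CXCR4, rose from 88.0 and 87.8 to 179 and 217 (1.16 ± 0.15). The MCF10A EV libraries of Cxcl12, at 83.0 and 94.5, sat at the PBS level, and the 2 vesicle groups differed by 1.15 (limma adjusted p = 8.93e-05). Sned1, a matrix glycoprotein gene, showed the same order, with 169.6 and 180.5 normalised reads with PBS, 192 and 189.7 with MCF10A EV and 354 and 417 with MDA-MB-231 EV. Nhsl1, whose product is linked to the actin cytoskeleton, did so too, with 188 and 212, 195 and 226 and 355 and 406.

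For Amotl2 and Cyp1b1 the difference between the vesicle groups was not called. Amotl2, an angiomotin-family gene whose product binds the YAP co-activator, held 2084 and 1818 normalised reads with PBS, 3508 and 3636 with MCF10A EV and 3895 and 3834 with MDA-MB-231 EV, and the difference between the vesicle groups was 0.11 (95% interval 0.01 to 0.22, not called). Cyp1b1, a cytochrome P450, went from 1486 and 1506 to 2852 and 2770.2, beside 2479.6 and 2729 with MCF10A EV (difference between the vesicle groups 0.11, 95% interval 0.02 to 0.21). Ptx3, a pentraxin of innate defence, rose against PBS by 0.96 ± 0.065 and was lower than with MCF10A EV (limma adjusted p = 0.00809). The rest of the 15 were Tfap4 (1.14), Prss23 (1.06), Epha7 (1.03), Plscr2 (0.98), Atoh8 (0.95), Kif26b (0.92) and Dusp9 (0.90), with log2 changes in parentheses, of which Prss23, Plscr2 and Kif26b were also higher than with MCF10A EV.

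**Figure D2:**
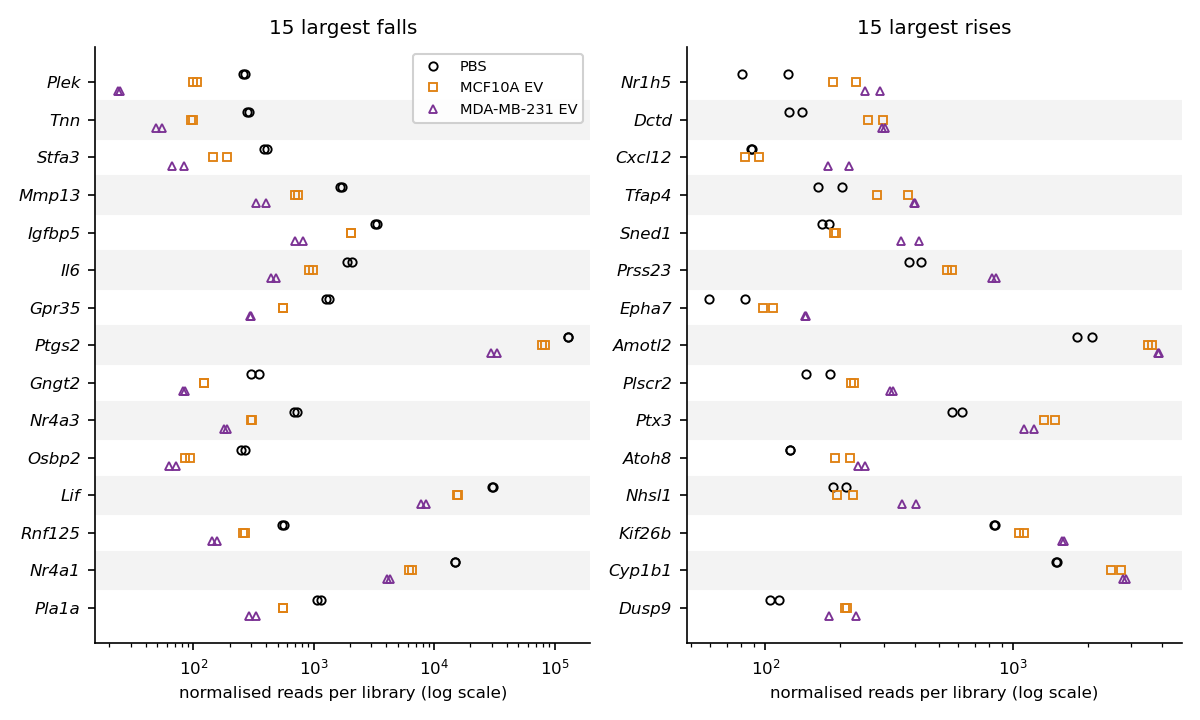
Normalised reads in each library (horizontal axis, log scale) for the 15 members with the largest falls (left) and the 15 with the largest rises (right) among those with a mean of at least 100, with 2 points a group for PBS, MCF10A EV and MDA-MB-231 EV. The rows were picked for MDA-MB-231 EV and PBS points that do not overlap, so on the left the former lie lower by choice. In every row on the left the MCF10A EV points lie between. For Cxcl12, at 83.0 and 94.5 with MCF10A EV, only the MDA-MB-231 EV points stand apart.

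Counted in reads, the losses were gathered in fewer genes than the gains. The 5893 members with a lower mean lost 2344615 normalised reads in all, and 39.8% of that came from the 50 largest losses. The 6425 members with a higher mean gained 1215991 normalised reads, of which 16.9% came from the 50 largest gains. The values of all genes summed to 25278900 and 25226600 with PBS and to 24320200 and 23927200 with EV. The summed loss and gain therefore rest in part on how the libraries were scaled. Ptgs2 went from 128739 and 128902 normalised reads to 33242 and 29703, and Tnc, the matricellular protein tenascin-C, from 124591 and 124421 to 54940.1 and 50932. Thbs1, thrombospondin-1, fell from 138144 and 138937 to 69519 and 67832. Dio2, the deiodinase that activates thyroid hormone, fell from 86721 and 88073 to 42499 and 42796, and Stc1, the secreted glycoprotein stanniocalcin-1, from 47883 and 47291 to 15622 and 14918. Their log2 changes were -2.04, -1.24, -1.01, -1.03 and -1.64, with SEs from 0.027 (Thbs1) to 0.041 (Ptgs2). In all 5 the MCF10A EV libraries stood between the other groups, which did not overlap. These genes were picked for large losses, and PBS and EV did not overlap in 8822 of all 12318 members. The order of the groups is therefore a description only. How many members share it was not counted, here or for the genes described in the same way below.

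Vim, the intermediate filament protein of mesenchymal cells, and Dcn, the proteoglycan decorin, had large losses as well. Dcn fell from 51006 and 51079 normalised reads to 27785 and 26621 (-0.91 ± 0.033). Vim fell from 147455 and 148599 to 118717 and 114244 (-0.35 ± 0.027), a fall that quantile scaling removed, with a change of 0. The 8 largest gains were Actb (0.23), Ahnak (0.13), Tuba1b (0.28), Tuba1c (0.24), Mki67 (0.50), Kpnb1 (0.38), Ftl1 (0.17) and Tubb5 (0.17), that is cytoskeletal genes, a proliferation marker, a nuclear import factor and ferritin light chain. Mki67 stood at 15399.6 and 16237 normalised reads with PBS and at 22457 and 22292 with EV. Without the first EV library the changes of Actb and Ahnak were 0.204 and 0.127 and were no longer called (limma adjusted p = 0.0557 and 0.057), and that of Ahnak was 0.107 without the second PBS library (limma adjusted p = 0.108). Other genes with many PBS reads were Lrp1 (-0.36), Eef1a1 (-0.11) and Col1a2 (-0.14), with log2 changes in parentheses, of which those of Eef1a1 and Col1a2 turned to rises of 0.21 and 0.22 under quantile scaling. Neither of these was called without the first PBS library (-0.09 and -0.14) or the second (-0.12 and -0.14), nor Eef1a1 without the second EV library (-0.09).

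**Figure D3:**
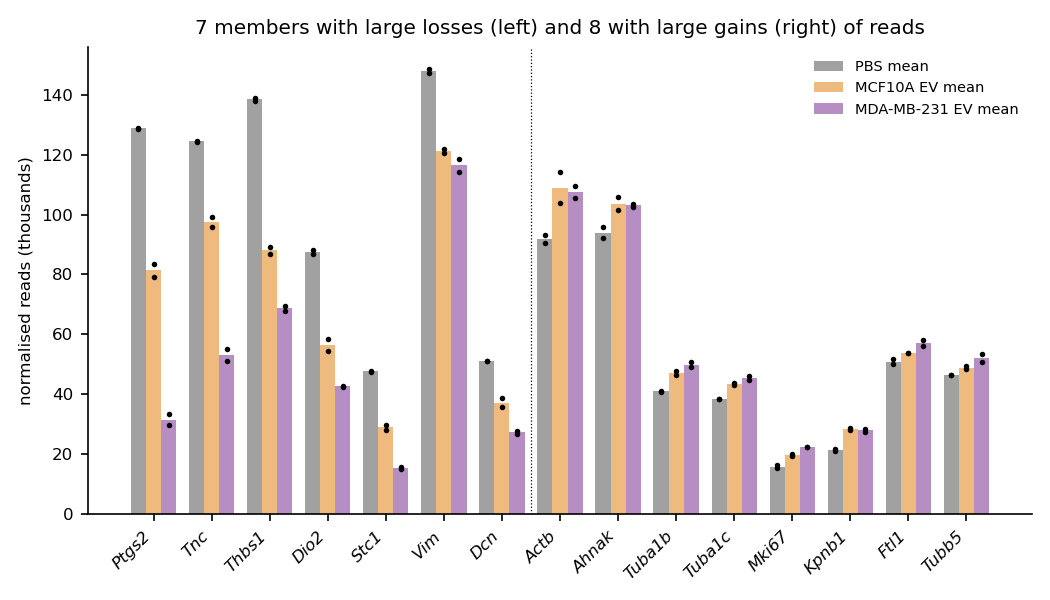
Mean normalised reads (bars, from 0, on an axis in units of 1000) and the 2 libraries of each group (points) for 7 members with large losses, left of the dotted line, and the 8 with the largest gains, right of it. Ptgs2, at 128739 and 128902 normalised reads with PBS and 33242 and 29703 with MDA-MB-231 EV, shows the largest loss of these, and no gain approaches it.

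Secreted signals fell more often than they rose. Of the 6 IL-6 family ligands that were members 4 fell and 0 rose (median log2 change -0.92, beside 0.012 over all members). Il6 held 1901 and 2072 normalised reads with PBS, 985 and 905 with MCF10A EV and 482 and 441 with MDA-MB-231 EV (-2.10 ± 0.062). Lif held 30195 and 31069.8, 15862 and 15613 and 8603 and 7781 (-1.90 ± 0.038). Both were ordered in the same way over the 3 groups, with no overlap. Il11 fell from 433 and 358 to 174 and 138 and Clcf1 from 541 and 507 to 394 and 344, while Ctf1 (-0.07) was not called. On the receiving side the shared signal chain Il6st, which encodes gp130, rose from 10802 and 10646 to 13589.9 and 14070.5 (0.37 ± 0.032), as did Il11ra1 (0.17), and the other 3 receptors were not called. The feedback gene Socs3, whose product blocks gp130 signalling, fell (-0.40), as did Cish (-0.53). Calls lost when 1 library was left out were those of Il11ra1 (0.15 to 0.18 without PBS 1, PBS 2, EV 1 or EV 2), where PBS, MCF10A and EV with a replicate number name the library left out and the values are the log2 changes without it. Another scaling ended the call of Il11ra1 (0.14 with quantile scaling).

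In the prostaglandin pathway the steps that release and convert arachidonic acid mostly fell. Pla2g4a, the cytosolic phospholipase that frees arachidonic acid, went from 10137 and 9945 normalised reads to 5846 and 5564 (-0.82 ± 0.033). Ptgs2, the next enzyme, fell 4.1-fold, from 128739 and 128902 to 33242 and 29703 (-2.04 ± 0.041, limma adjusted p = 3.88e-14), with 83618 and 79259.6 in the MCF10A EV libraries. Ptges, which makes prostaglandin E2, went from 7184 and 7159 to 4634 and 4389.6 (-0.67 ± 0.032). Ptgs1, the constitutive cyclooxygenase, fell by far less (-0.09 ± 0.033), and Ptges2 and Ptges3 rose by 0.22 and 0.23. Of the receptors Ptger2 fell (-1.24), as did Ptgfr (-0.33), while Ptger4 rose (0.48), and Ptgr1, a prostaglandin reductase, rose too (0.14). Over the whole list of 15 members 4 rose and 6 fell, with a median of -0.067, or -0.0013 with equal library totals. With 1 library left out the call was lost for Ptgs1 (-0.05 to -0.10 without PBS 1, PBS 2, MCF10A 1, MCF10A 2 or EV 2), Ptges2 (0.21 to 0.22 without PBS 2, EV 1 or EV 2), Ptges3 (0.21 to 0.25 without PBS 1, PBS 2, EV 1 or EV 2) and Ptgr1 (0.09 to 0.18 without PBS 1, PBS 2, EV 1 or EV 2). The call was lost under another scaling for Ptgs1 (-0.025 with equal library totals and 0 with quantile scaling).

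Among 14 chemokines and chemokine receptors 6 fell and 3 rose (median -0.32). Cxcl1, which attracts neutrophils, went from 35813 and 37500.1 normalised reads to 16941 and 16313 (-1.14 ± 0.032), with 29229.7 and 27801 after MCF10A EV. Its PBS libraries lay above both vesicle groups and its MDA-MB-231 EV libraries below the MCF10A EV ones. Ccl9 (-0.92), Ccl2 (-0.45) and Cxcl5 (-0.38) also fell, and so did the receptors Ccr1 (-1.77) and Ackr3 (-1.01), the latter a scavenger of Cxcl12. The 3 rises were Cxcl12, Ccl7 (0.09) and Ccl11 (1.82, from 4.41 and 7.52 to 27.4 and 19.3 normalised reads). Leaving out 1 library removed the call of Ccr1 (-1.31 to -1.43 without PBS 2 or EV 2), Ccl7 (0.07 to 0.08 without PBS 2 or EV 1) and Ccl11 (1.5 to 1.58 without PBS 1 or EV 1).

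Of 19 members of the colony-stimulating factor, interleukin-1 and TNF receptor lists 10 fell and 0 rose (median -0.39). The interleukin-1 ligands Il1a and Il1b and the antagonist Il1rn fell, from 12177 and 12496 to 5597 and 5365, from 251.5 and 231.4 to 94.4 and 87.5 and from 2153 and 2139 to 741 and 665 normalised reads. Il33, an alarmin of the same family, fell from 19406 and 19511 to 8982 and 8145 (-1.19 ± 0.037). Csf3 and Csf2, growth factors of granulocytes and macrophages, fell by 0.98 and 0.89 on the log2 scale, while Csf1, the main macrophage growth factor, was not called (0.06 ± 0.028). The receptor Il1rl1, which binds Il33, was not called either (-0.04, turning to a called 0.25 under quantile scaling), whereas Il1r1 (-0.47), Csf2rb (-0.71) and Csf1r (-1.48) fell. A call was gained by Csf1 (0.12 with equal library totals and 0.11 with quantile scaling).

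Growth factor ligands fell more often than they rose. Of the EGF family ligands Ereg fell from 6803 and 6938 normalised reads to 2674 and 2433 (-1.43 ± 0.042) and Hbegf from 444 and 431 to 233 and 249, while Nrg1 rose from 527 and 571 to 742 and 828 (0.51 ± 0.066). Errfi1, an inhibitor of the EGF receptor, fell from 9521 and 9208 to 4873 and 4495, and Egfr itself was not called (-0.18). The ligands Hgf (-0.47), Pdgfa (-0.43), Fgf7 (-0.36) and Pdgfc (-0.23) fell, and Fgf10 rose (0.09). The receptors Fgfr2 (0.51) and Fgfr1 (0.07) rose, and the 2 PDGF receptors were not called (-0.01 and 0.07). Not called without 1 of the libraries were Pdgfc (-0.20 to -0.21 without PBS 1 or EV 1), Fgf10 (0.09 to 0.10 without PBS 1, PBS 2, EV 1 or EV 2) and Fgfr1 (0.07 to 0.08 without PBS 1, PBS 2, EV 1 or EV 2). Other settings gave a call to Egfr (-0.18 with only members tested, -0.27 without EV 1 and -0.18 with edgeR).

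In the BMP and TGF-beta list most antagonists fell and most targets rose. Of 9 antagonists 6 fell and 0 rose (median -0.32), and of 7 target genes 5 rose and 1 fell (median 0.53). Fst, follistatin, which binds activins, went from 9434 and 9703 normalised reads to 4555 and 4292 (-1.11 ± 0.036), and Chrdl1 and Grem1, which bind BMPs, fell by 1.86 and 0.32. Inhba, the activin A subunit, fell from 483 and 530.3 to 246 and 247. Id1, a target of BMP signalling that holds back differentiation factors, rose from 466 and 486 to 849 and 805 (0.80 ± 0.059), and Id2, Id3, Smad6 and Smad9 rose by 0.53, 0.14, 0.65 and 0.59. Smad7 fell (-0.32), and Id4 was not called (0.41). Calls lost when 1 library was left out were those of Id3 (0.07 to 0.17 without PBS 1, PBS 2, MCF10A 1, MCF10A 2 or EV 1), Smad6 (0.53 to 0.67 without PBS 2, EV 1 or EV 2), Smad9 (0.52 to 0.62 without PBS 1, EV 1 or EV 2) and Smad7 (-0.28 to -0.36 without PBS 1, PBS 2, EV 1 or EV 2).

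In the insulin-like growth factor axis Igfbp5 fell 4.37-fold (limma adjusted p = 1.45e-12), Igfbp4 by 0.67 and Igfbp6 by 0.21 on the log2 scale. Stc1, whose product inhibits the protease PAPP-A that cuts these binding proteins, fell 3.12-fold, and Pappa, the gene of that protease, fell too (-0.57). The docking protein genes of the insulin and IGF receptors went opposite ways, with Irs1 up from 293 and 330.3 to 561 and 587 normalised reads (0.88 ± 0.089) and Irs2 down (-0.51). Of 13 Wnt pathway members 1 rose and 4 fell, and of 7 Notch pathway members 1 rose and 1 fell. The Wnt falls were Wnt9a (-0.81), Dkk3 (-0.69), Wnt5a (-0.50) and Nkd2 (-0.32) and the rise Ccnd1 (0.37), a target, and in the Notch list the ligand Dll1 fell (-0.77) and the receptor Notch2 rose (0.26). Guidance genes were mixed, with 9 rises and 9 falls among 29. Sema7a fell from 504 and 452 to 207 and 170.0 (-1.34 ± 0.11), the ligand gene Efna5 rose (0.66), and the ephrin receptor genes Ephb3, Ephb2 and Epha7 rose by 0.75, 0.52 and 1.03. With 1 library left out the call was lost for Wnt9a (-0.76 to -0.86 without PBS 1, PBS 2, EV 1 or EV 2), Wnt5a (-0.40 to -0.57 without PBS 1, PBS 2 or EV 1) and Dll1 (-0.46 to -0.88 without PBS 1, PBS 2, MCF10A 1, MCF10A 2 or EV 1).

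Immediate early genes, which cells switch on within minutes of a stimulus without new protein, were lower 48 h after MDA-MB-231 EV. Of 20 members 15 fell and 1 rose (median -0.57), and all 6 EGR and NR4A genes fell (median -1.7). Nr4a1, a nuclear receptor without a classical ligand, went from 14746 and 14965 normalised reads to 4283 and 4020.0 (-1.84 ± 0.037), and Nr4a2 from 6732 and 6649 to 1999.8 and 1971 (-1.75 ± 0.032). Ier3 fell from 15217 and 15158 to 5849 and 5233. In each of these 3 the MCF10A EV libraries stood between, at 6571 and 6149, 3224 and 3184 and 10332 and 10076. The 1 rise was Klf10 (0.26). Leaving out 1 library removed the call of Klf10 (0.18 to 0.23 without PBS 1 or EV 1).

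All 12 members of the AP-1 list, the dimeric factors built from FOS, JUN, ATF and MAF proteins, fell (median -0.42). Fos went from 209.7 and 215 normalised reads to 74.2 and 77.7, Fosb from 190.2 and 198 to 72.1 and 62.0 and Fosl1 from 11728 and 11239.5 to 7084 and 6457 (-0.76 ± 0.038). The 3 JUN genes fell by less, by 0.42 for Junb, 0.39 for Jund and 0.38 for Jun on the log2 scale. Of 21 genes induced by MAP kinase signalling, many of which restrain it, 13 fell and 1 rose. Spry2, a sprouty inhibitor, fell from 1992 and 1946 to 959.6 and 886, and the phosphatase genes Dusp5, Dusp1, Dusp4 and Dusp6 changed by -0.95, -0.88, -0.83 and -0.73. The rise was Spry1, from 39.1 and 38.3 to 73.1 and 67.2 (0.84 ± 0.20). Dusp9, a further DUSP gene that was not in this list, was among the largest rises described above.

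Of the 17 NF-kB subunits and inhibitors 13 fell and 0 rose (median -0.26). NF-kB is the factor that carries signals of interleukin-1, TNF and microbial products, and it induces its own inhibitors. Nfkbiz went from 7711 and 7967 normalised reads to 4449 and 4372 (-0.83 ± 0.031). Tnfaip3, which encodes the deubiquitinase A20, went from 595 and 578 to 408 and 399.8, with 609.7 and 569 after MCF10A EV, a level that overlapped PBS. Of the 5 subunits Rel, Relb, Nfkb2 and Nfkb1 fell by 0.38, 0.26, 0.19 and 0.18, and Rela was not called (-0.09). Not called without 1 of the libraries were Rel (-0.34 without EV 1) and Relb (-0.20 to -0.21 without PBS 2 or EV 1). A call was gained by Rela (-0.094 with edgeR).

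The 250 bases before the RefSeq start of Cxcl1 and Mmp13 are shown because both genes fell and carry letters known as binding motifs of the factors just described. They are from RefSeq on GRCm38.p6, written 5′ to 3′ along the gene, and were chosen for the match after the values were seen. Capitals mark GGG, 2 bases, TTTCC, the NF-kB motif, in Cxcl1 and TGANTCA, the AP-1 motif, in Mmp13, both read on either strand.
Cxcl1, chr5:90890995-90891244, plus strand: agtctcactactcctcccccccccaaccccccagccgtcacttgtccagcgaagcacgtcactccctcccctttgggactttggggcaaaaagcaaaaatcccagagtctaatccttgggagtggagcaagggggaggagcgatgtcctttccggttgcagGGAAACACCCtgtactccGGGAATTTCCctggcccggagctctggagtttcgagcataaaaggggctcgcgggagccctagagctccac
Mmp13, chr9:7272264-7272513, plus strand: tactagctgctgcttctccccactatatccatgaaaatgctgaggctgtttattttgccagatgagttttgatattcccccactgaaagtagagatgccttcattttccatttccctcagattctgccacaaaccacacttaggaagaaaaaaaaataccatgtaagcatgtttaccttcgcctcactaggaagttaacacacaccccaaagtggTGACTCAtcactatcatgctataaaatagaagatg
Cxcl1 holds the NF-kB motif at 89 and 71 bases before its start, and Mmp13 the AP-1 motif at 35 bases before its start. Shares are of 300-base RefSeq windows around gene starts, of which a gene can have several. The NF-kB motif was found in 7 of 17 promoters of the NF-kB list, 41.2%, which belong to 5 of 14 genes. It was in 1.63% of all 32851 promoters and 1.80% of the members' promoters. The AP-1 motif was found in 3 of 5 promoters of the IL-6 family ligands and 3 of 8 of the matrix metalloproteinases (37.5%). Over the whole lists to which these belong it was in 4 of 15 and 3 of 12 promoters. In the plasminogen and clotting list it was in 6 of 11 promoters (54.5%), of 5 of 9 genes. Of all promoters 7.81% held the AP-1 motif, and of the members' promoters 5.35%. The AP-1 motif was in 0 of 15 promoters each of the AP-1, immediate early and prostaglandin lists and in 0 of 19 of the MAP kinase feedback list. It was in 14.4% of the promoters of members that fell at least 2-fold, and in 6.65% of those of all members that fell. A match is a description of the letters only.

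Genes that act on the extracellular matrix fell in most lists. Of 13 matrix metalloproteinases 8 fell and 1 rose. Mmp13 went from 1714 and 1653 normalised reads to 399 and 330.2, Mmp10 from 3077 and 3146 to 1835 and 1803 and Mmp3, stromelysin-1, from 31678 and 32208 to 21907 and 20843. For Mmp3 the MCF10A EV values, at 35995 and 36166, lay above PBS and the MDA-MB-231 EV libraries below it, and the 2 vesicle groups differed by -0.76 (limma adjusted p = 2.33e-10). Mmp2, gelatinase A, fell by 0.43 and the membrane-bound Mmp14 by 0.30. Mmp24 was the rise (0.19). Of the inhibitors Timp1 fell (-0.12), and Timp2 (0.06), Timp3 (0.04) and Reck (-0.17) were not called. Among 9 members of the ADAMTS family, secreted proteases of proteoglycans and procollagens, Adamts14, Adamts1, Adamts4, Adamts9 and Adamts7 fell (-0.90, -0.75, -0.70, -0.39 and -0.16) and Adamts5 rose (0.27). Calls lost when 1 library was left out were those of Mmp24 (0.14 to 0.24 without PBS 1, PBS 2, MCF10A 1, MCF10A 2, EV 1 or EV 2) and Timp1 (-0.09 to -0.13 without PBS 2, EV 1 or EV 2). Another scaling ended the call of Mmp24 (0.17 with quantile scaling) and Timp1 (-0.056 with equal library totals and -0.080 with quantile scaling). Other settings gave a call to Timp2 (0.12 with equal library totals and 0.14 with quantile scaling).

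The plasminogen and clotting list held 14 members, of which 10 fell and 0 rose (median -0.32). Plau, urokinase, went from 708 and 793 normalised reads to 385 and 463, and its receptor Plaur from 992 and 848 to 565 and 554. For both genes the MCF10A EV values, at 696 and 674 and 884 and 956, lay near or within the PBS range. Thbd, thrombomodulin, which turns thrombin towards activating protein C, fell from 17208 and 17181 to 9158 and 8574 (-0.96 ± 0.034), and Procr, the protein C receptor, from 1827 and 1860.4 to 888 and 803. Tissue factor F3 (-0.30) fell by less.

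Adhesion receptors and basement membrane genes fell in 15 of 24 cases and rose in 2 (median -0.29). Itgb3, the integrin beta3 chain, went from 2044 and 2052 normalised reads to 1103 and 1013 (-0.95 ± 0.050), and Itga7 from 279.9 and 327 to 176 and 133. The rises were Itga3 (0.47) and Itgb8 (0.59). Of 9 laminin chains 6 fell, among them Lamc1, the chain shared by most laminins, by 0.56. Among 17 matricellular genes 7 fell and 4 rose. Tnc fell from 124591 and 124421 to 54940.1 and 50932 (-1.24 ± 0.033), and the thrombospondin genes Thbs1 and Thbs2 fell by 1.01 and 0.52, while Nov, Wisp2, Fbln5 and Wisp1 rose by 0.76, 0.73, 0.62 and 0.39. Ctgf, a further gene of the CCN family, was not called (1.02 ± 0.42). In the hyaluronan and proteoglycan list of 24 members 12 fell and 4 rose. The synthases Has1 and Has2 fell by 0.59 and 0.56 and the hyaluronan receptor Cd44 by 0.39, while the rises were Ogn (1.93, from 9.69 and 5.54 to 26.4 and 36.1), Hmmr (0.49), Hyal2 (0.26) and Bgn (0.16). With 1 library left out the call was lost for Itgb8 (0.48 to 0.71 without PBS 1, PBS 2, EV 1 or EV 2), Nov (0.58 to 0.67 without PBS 2 or EV 2), Ogn (1.72 without EV 2), Hyal2 (0.23 to 0.29 without PBS 1, PBS 2, EV 1 or EV 2) and Bgn (0.13 without PBS 2). A call was gained by Ctgf (1.02 with only members tested and 1.62 without PBS 2).

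The machinery of the ER fell together. Of 39 folding and quality control members 36 fell and 0 rose (median -0.45), and of 44 members of the entry and export routes 40 fell and 0 rose (median -0.25). Hspa5, the ER chaperone BiP, went from 58417 and 57875 normalised reads to 35739.9 and 33161 (-0.76 ± 0.034), with 53252 and 50828 after MCF10A EV. Hyou1, a partner of BiP, went from 9606 and 9062 to 5481 and 5148, and Hsp90b1, the ER form of HSP90, from 63827 and 63266 to 48051 and 46550.1. In all 3 the PBS libraries were the highest and the MDA-MB-231 EV libraries the lowest, with no overlap. The oxidase gene Ero1l, which recharges disulfide isomerases, fell most in the list (7611 and 7840.3 to 3871 and 3702, -1.03 ± 0.033), and its relative Ero1lb fell too (-0.83). The genes of the stress sensors PERK (Eif2ak3, -0.57), IRE1 (Ern1, -0.47) and ATF6 (Atf6, -0.39) fell, as did Xbp1 (-0.41), the factor that IRE1 activates, and Nucb2 (-0.76), a calcium-binding protein gene. The 3 members that were not called were Cdnf (-0.37), Canx (-0.06) and Cnpy2 (0.03). Other settings gave a call to Canx (-0.064 with edgeR and -0.070 with DESeq2).

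A pair of the fallen chaperone genes is shown with the 250 bases before their starts, since both hold the ER stress element, known as a binding sequence of ER stress factors, and were chosen for it after the values were seen. Capitals mark CCAAT, 9 bases, CCACG, read on either strand, and the sequences are from RefSeq on GRCm38.p6, 5′ to 3′ along the gene.
Hspa5, chr2:34771840-34772089, plus strand: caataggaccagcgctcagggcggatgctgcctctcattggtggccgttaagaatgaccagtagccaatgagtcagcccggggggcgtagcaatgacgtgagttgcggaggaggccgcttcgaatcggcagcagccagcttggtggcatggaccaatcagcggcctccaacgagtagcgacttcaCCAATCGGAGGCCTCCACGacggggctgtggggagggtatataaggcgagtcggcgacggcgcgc
Creld2, chr15:88819396-88819645, plus strand: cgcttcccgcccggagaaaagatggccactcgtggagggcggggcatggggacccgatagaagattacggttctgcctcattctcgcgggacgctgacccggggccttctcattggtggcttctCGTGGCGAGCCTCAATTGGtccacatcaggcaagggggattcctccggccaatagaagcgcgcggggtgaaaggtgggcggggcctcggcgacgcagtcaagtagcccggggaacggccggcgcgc
The element begins 65 bases before the start of Hspa5 and 126 bases before that of Creld2, where it lies on the opposite strand. The element was in 0.119% of all and 0.152% of the members' promoters. In the folding list 8 of 39 promoters of 32 genes held it (20.5%), as did 6 of 17 chaperone promoters of 14 genes (35.3%). By the other roles it was in 1 of 10 disulfide, 1 of 8 degradation and 0 of 4 sensor promoters. The genes that hold it were Hspa5, Calr, Hsp90b1, Canx, Pdia6, Dnajc3, Creld2 and Syvn1, with log2 changes of -0.76, -0.28, -0.43, -0.06, -0.46, -0.42, -0.73 and -0.72, of which that of Canx was not called. The call was lost under another scaling for Calr (-0.040 with quantile scaling).

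Along the routes into and out of the ER the falls were smaller. Sec61b, a subunit of the channel that takes proteins into the ER, went from 1754 and 1849.7 normalised reads to 1262 and 1285 (-0.50 ± 0.042). Sec23a, a COPII coat protein of vesicles that leave the ER, went from 4059 and 3981 to 2918 and 2778 (-0.50 ± 0.036), and Kdelr3, a receptor that returns chaperones to the ER, from 1273 and 1231 to 849 and 871. By role 15 of 17 translocon and signal recognition genes, 12 of 14 COPII genes and 13 of 13 COPI and Golgi genes fell.

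The list of ATF4 and CHOP, factors raised when translation is held back by ER stress or amino acid shortage, held both factors of this response and effectors, and its members fell in 13 of 15 cases and rose in 1 (median -0.42). Trib3 went from 509 and 549.9 normalised reads to 230.5 and 224 (-1.22 ± 0.079), and Ppp1r15a, which restarts translation, from 1754 and 1576 to 797 and 771. Chac1, a glutathione-degrading enzyme, stood at 1143 and 1039 with PBS, at 1488 and 1385 with MCF10A EV and at 592 and 558 with MDA-MB-231 EV, so that the vesicle groups lay on opposite sides of PBS and differed by -1.32 (limma adjusted p = 1.30e-09). Ddit4 stood at 1310.3 and 1369, 664 and 696 and 753 and 692, with no call between the vesicle groups. Atf4 itself fell by 0.39 and Ddit3, which encodes CHOP, by 0.44. The rise was Stc2 (0.32). Leaving out 1 library removed the call of Stc2 (0.29 to 0.36 without PBS 1, PBS 2, EV 1 or EV 2).

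Atf3, an AP-1 family gene that these factors also induce, fell from 230.0 and 218 normalised reads to 86.3 and 87.4 (-1.35 ± 0.13), and its promoter, chosen in the same way, is shown for the amino acid response core TTGCATCA (capitals, either strand), 110 bases before the start.
Atf3, chr1:191183334-191183583, minus strand: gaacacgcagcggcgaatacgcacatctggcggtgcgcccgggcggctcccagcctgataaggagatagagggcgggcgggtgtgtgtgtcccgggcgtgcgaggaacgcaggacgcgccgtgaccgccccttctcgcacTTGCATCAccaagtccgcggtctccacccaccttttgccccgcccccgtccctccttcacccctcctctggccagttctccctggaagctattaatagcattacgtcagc
That core was found in 0.895% of all and 0.80% of the members' promoters and in 4 of 12 promoters of the cytosolic aminoacyl-tRNA synthetases, 33.3%. These enzymes, which charge tRNAs, were mostly not called against PBS: of 20 members 6 rose and 3 fell (median 0.052), the falls being Qars (-0.17), Gars (-0.12) and Sars (-0.10). Against MCF10A EV, where 1493 of all 12318 members were lower and 1002 higher, 14 of the 20 were lower and 0 higher. Their mitochondrial counterparts rose in 8 of 16 cases, and 0 were lower than with MCF10A EV. Of 17 amino acid transporters 4 rose and 6 fell, with Slc6a9, a glycine carrier, going from 771 and 760.4 to 403 and 379.7 and Slc1a3, a glutamate and aspartate carrier, from 732 and 741 to 1232 and 1452. The other rises were Slc7a2 (0.67), Slc38a4 (0.42) and Slc7a11 (0.17). Their median of -0.065 turned to 0.00077 with equal library totals. Not called without 1 of the libraries were Gars (-0.10 without PBS 2 or EV 2), Sars (-0.07 to -0.11 without PBS 1, PBS 2 or EV 2) and Slc7a2 (0.63 to 0.72 without PBS 1, PBS 2, EV 1 or EV 2). Another scaling ended the call of Gars (-0.052 with equal library totals and -0.068 with quantile scaling) and Sars (-0.035 with equal library totals and -0.056 with quantile scaling).

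Genes of DNA synthesis and division rose together by modest amounts. All 42 members of the replication origin and fork list rose (median 0.46), 45 of 50 mitosis members rose and 0 fell (median 0.41), and 17 of 25 DNA repair members rose and 0 fell (median 0.48). Mcm5, a subunit of the replicative helicase, went from 2284 and 2350.2 normalised reads to 3568 and 3655 (0.64 ± 0.034, 1.56-fold), with 3349 and 3392 after MCF10A EV. Timeless, which steadies the fork, went from 667 and 660.5 to 1056 and 1089.9, and Cdc6, a licensing factor, from 603 and 586 to 868 and 993. None of the 3 was called between the vesicle groups (differences 0.10, 0.16 and 0.01, with 95% intervals of 0.03 to 0.17, 0.05 to 0.28 and -0.13 to 0.14). The members of the repair list that rose most were Rmi2 (0.85), Palb2 (0.74), Rad54l (0.71) and Exo1 (0.68), all of homologous recombination. Calls lost when 1 library was left out were those of Palb2 (0.70 without EV 1).

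Mitotic genes often stood above both other groups. The spindle checkpoint kinase Bub1b held 2185 and 2155 normalised reads with PBS, 2605 and 2572 with MCF10A EV and 3318 and 3369 with MDA-MB-231 EV (0.62 ± 0.034). The spindle motor Kif11 held 2941 and 3032, 3751 and 3799 and 4399 and 4509.5, and the kinetochore protein Cenpf 3223 and 3563, 4167 and 4191 and 4997 and 4980.0. In these 3 genes every MDA-MB-231 EV library lay above every MCF10A EV library, which lay above PBS. Over all 12318 members 1002 were higher and 1493 lower than with MCF10A EV. Of the 50 mitosis members 22 were higher and 1 lower, while 8 of 42 origin and fork members were higher and 0 lower. The 1 that was lower was Zwint (-0.19 against MCF10A EV, -0.05 against PBS). Whether the lists differ in this respect was not tested.

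Mcm6 and Cdc20, 1 gene from either end of the cycle, are shown with the 250 bases before their starts and were again chosen for their match. Capitals mark TTTGGCGC, an E2F motif, in Mcm6 and TTTGAA, the cell cycle genes homology region (CHR) through which many mitotic genes are timed, in Cdc20, on either strand, in RefSeq sequence on GRCm38.p6, 5′ to 3′ along the gene.
Mcm6, chr1:128359706-128359955, minus strand: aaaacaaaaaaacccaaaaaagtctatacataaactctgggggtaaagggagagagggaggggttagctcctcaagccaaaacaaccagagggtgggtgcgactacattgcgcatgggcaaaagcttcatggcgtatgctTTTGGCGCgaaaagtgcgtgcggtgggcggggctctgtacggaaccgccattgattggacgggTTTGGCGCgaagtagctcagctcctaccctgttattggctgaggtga
Cdc20, chr4:118437344-118437593, minus strand: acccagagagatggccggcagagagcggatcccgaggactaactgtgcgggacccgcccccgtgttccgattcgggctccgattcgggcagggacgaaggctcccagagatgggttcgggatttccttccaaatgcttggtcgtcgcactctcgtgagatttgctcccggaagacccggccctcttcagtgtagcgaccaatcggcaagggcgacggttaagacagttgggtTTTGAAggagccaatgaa
Mcm6 rose from 3974 and 3989.5 normalised reads to 6112 and 5992 (0.60 ± 0.032), and Cdc20, the activator of the anaphase-promoting complex, from 1430.5 and 1369 to 1995 and 2072 (0.54 ± 0.042). The motif TTTGGCGC was in 6 of 39 promoters of the origin and fork list (15.4%), beside 0.514% of all and 0.918% of the members' promoters, and the other E2F motif searched, TTTCCCGC, was in 8 of 39 (20.5%), beside 1.07% and 1.96%. The CHR letters were in 28 of 48 promoters of the mitosis list (58.3%), of 26 of 43 genes. They were in 12 of 14 promoters of its motor and spindle genes, of 11 of 13 genes, in 9 of 15 of its checkpoint genes and in 7 of 19 of its kinetochore genes. Of all promoters 17.9% held them, and of the members' promoters 12.1%.

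At the entry into the cycle 9 of 10 cyclin, kinase and CDC25 members rose and 1 fell. Ccnd1, cyclin D1, rose from 5499 and 5573 normalised reads to 7481 and 6850.1 (0.37 ± 0.038), Ccne2 from 725 and 803 to 1050.1 and 1017, and Ccnd2 fell (-0.27). Of the 13 E2F and RB members of the same list 5 rose and 1 fell (median 0.1), and over the whole list 15 of 27 rose and 3 fell. The inhibitor Cdkn1a, which encodes p21, fell from 4431 and 4339 to 3211 and 3089 (-0.48 ± 0.033), with 4115 and 4179 after MCF10A EV, and Cdkn2c rose (0.15). Of 29 genes of nucleotide supply 23 rose and 2 fell (median 0.42), the falls being Hprt (-0.10) and Impdh1 (-0.21). Atic, of purine synthesis, went from 2194 and 2127 to 3306 and 3279, and Dtymk, thymidylate kinase, from 752 and 761 to 1180.0 and 1077. Of serine and folate metabolism Shmt1, Mthfd1 and Phgdh rose by 0.88, 0.59 and 0.42, while the mitochondrial Mthfd2 and Aldh1l2 fell by 0.27 and 0.36. With 1 library left out the call was lost for Cdk6 (0.38 to 0.48 without PBS 1, EV 1 or EV 2), a rise among the kinases, and for Cdkn2c (0.14 without PBS 2 or EV 1). The same held for Hprt (-0.07 to -0.13 without PBS 1, PBS 2, MCF10A 1, MCF10A 2, EV 1 or EV 2) and Impdh1 (-0.13 to -0.22 without PBS 1, PBS 2 or EV 2). The call was lost under another scaling for Hprt (-0.037 with equal library totals and -0.088 with quantile scaling).

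Growth machinery outside the cycle also rose, apart from the proteasome and the mitochondrial chaperonin and prefoldin genes. Of 38 nucleolar members, which make ribosomes, 31 rose and 0 fell (median 0.31). Dkc1, dyskerin, went from 798 and 775 normalised reads to 1305 and 1282 (0.72 ± 0.052), and Utp20, of the small subunit processome, from 2018 and 2068 to 3169 and 3180.0. The MCF10A EV values, at 1375 and 1515 and 3331 and 3307, lay above those of both other groups. Over the list 15 of 38 were called lower and 0 higher with MDA-MB-231 EV than with MCF10A EV. Of all 12318 members 1493 were lower and 1002 higher in that contrast. Of 51 mitochondrial ribosome genes 24 rose and 0 fell (median 0.15), with Mrpl12 going from 1265 and 1288 to 1743 and 1684. All 8 subunits of the cytosolic chaperonin rose (median 0.21), the widest being Cct6a (6374 and 6142 to 8134 and 8010.1). Of the 8 mitochondrial chaperonin and prefoldin members only 3 rose and 1 fell (median 0.037). Among those rises were Hspd1 of the mitochondrial chaperonin (0.43) and the prefoldin gene Pfdn6 (0.27). Of 36 proteasome members 9 rose and 2 fell against PBS (median 0.056, the falls being Psmd8 (-0.15) and Psmd11 (-0.12)), and 16 of 36 were lower than with MCF10A EV. Leaving out 1 library removed the call of Psmd11 (-0.11 to -0.13 without PBS 1, PBS 2, EV 1 or EV 2). Another scaling ended the call of Psmd11 (-0.054 with equal library totals and -0.10 with quantile scaling).

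**Figure D4:**
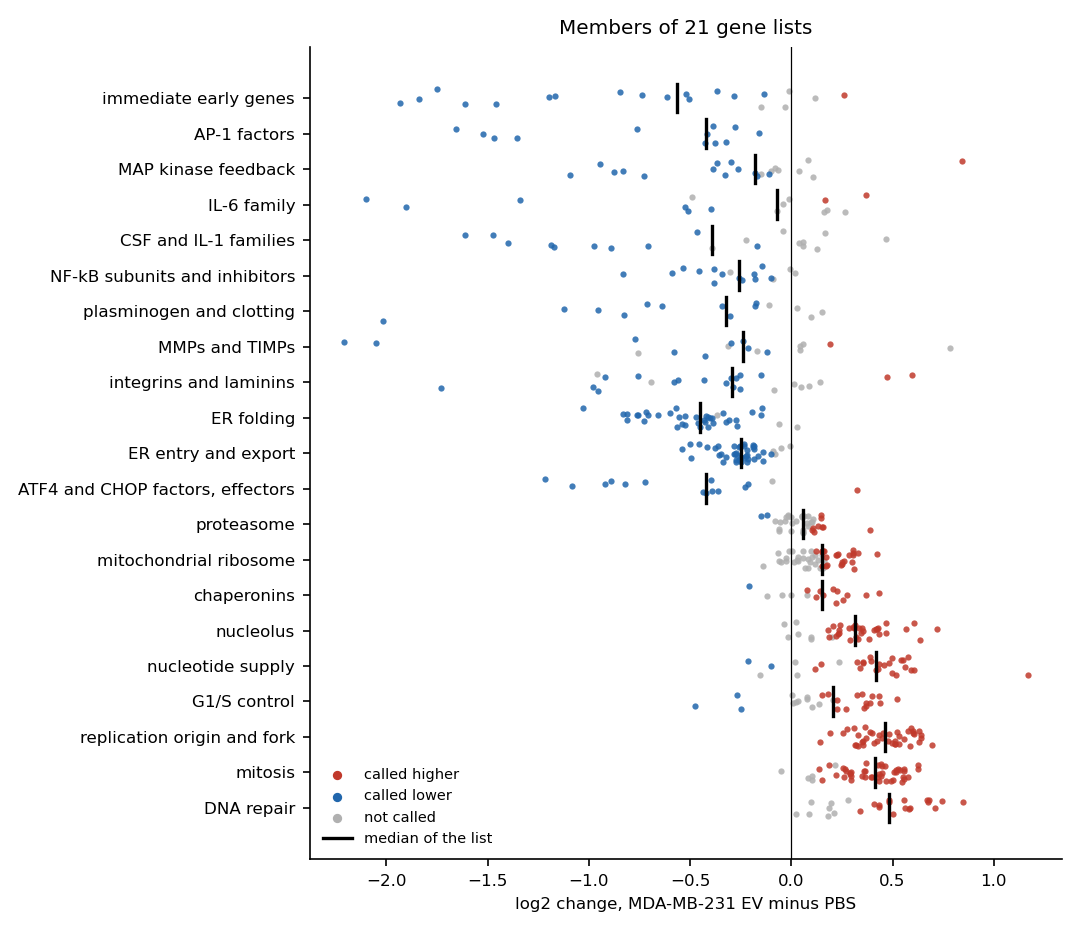
Log2 change with MDA-MB-231 EV against PBS (horizontal axis) for every member of 21 of the 45 lists. Each point is a gene, red where it rose, blue where it fell and grey where it was not called. A black bar marks the list's median. The 21 were chosen without a set rule. Left out were lists with a median near 0, such as the prostaglandin (-0.067), matricellular (0.0054) and guidance (0.0066) lists, and others such as the chemokine list (-0.32). The ER folding list (36 of 39 lower) and the AP-1 list (12 of 12 lower) lie left of 0, and the replication list (42 of 42 higher) lies right of it.

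Clock genes, which keep the daily rhythm through a loop of activators and repressors, were split. Of 17 members 7 fell and 5 rose. The activator Arntl fell from 1513 and 1555 normalised reads to 898 and 882 (-0.79 ± 0.046), and the repressor Nfil3 from 3687 and 3662 to 1945 and 1986, while Per3 rose from 155 and 203 to 297 and 315 and Tef, Hlf, Nr1d1 and Nr1d2 rose by 0.26, 0.28, 0.19 and 0.27. All libraries are labelled with the same 48 h, and no hour of the day is given. Of 21 imprinted genes 6 rose and 2 fell, with Dlk1 (1.29), Plagl1 (0.58) and Grb10 (0.25) among the rises and Gnas (-0.20) and Nckap1 (-0.08, with no fall left under quantile scaling) as the falls. In the iron and redox list of 28 members 10 rose and 5 fell. Steap3, an iron reductase, went from 3364 and 3359 to 4822 and 4686, Gsta4, a glutathione transferase, from 454 and 431 to 698 and 769, and the transferrin receptor Tfrc rose (0.33), while the falls were the zinc exporter Slc30a1 (-0.66), the metallothionein genes Mt2 (-0.42) and Mt1 (-0.22), Srxn1 (-0.30) and the iron carrier Slc11a2 (-0.19). Not called without 1 of the libraries were Tef (0.23 to 0.27 without PBS 1, EV 1 or EV 2), Hlf (0.18 to 0.28 without PBS 1, PBS 2 or EV 2), Nr1d1 (0.12 to 0.25 without PBS 1, PBS 2, EV 1 or EV 2), Nr1d2 (0.20 to 0.29 without PBS 1, PBS 2 or EV 2), Dlk1 (0.80 to 1.5 without PBS 1, MCF10A 1, MCF10A 2, EV 1 or EV 2), Plagl1 (0.46 without EV 1), Grb10 (0.23 without EV 2) and Nckap1 (-0.06 to -0.09 without PBS 1, PBS 2 or EV 2). The call was lost under another scaling for Nr1d1 (0.17 with quantile scaling) and Nckap1 (-0.014 with equal library totals).

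Most genes of secreted innate defence proteins fell against PBS, and most were above their level with MCF10A EV. Of 11 members 8 fell and 1 rose against PBS (median -0.37). Against MCF10A EV 7 were higher and 3 lower, the latter being Ptx3, Slpi and Stfa3, beside 1002 and 1493 of all 12318 members. Lcn2, lipocalin-2, which withholds iron from bacteria, held 1229 and 1159 normalised reads with PBS, 342 and 336 with MCF10A EV and 488 and 425 with MDA-MB-231 EV. Its change against PBS was -1.39 ± 0.073, and its difference from MCF10A EV was 0.43 ± 0.073 (limma adjusted p = 8.45e-04). Saa3, a serum amyloid A gene, held 21614 and 23099, 8575 and 8738 and 10929 and 10966. Hp, haptoglobin, held 2501 and 2375, 667 and 682 and 1396 and 1449, and C3, the central complement component, 41622 and 41288, 31532 and 30588 and 34176 and 33225. In all 4 the MCF10A EV libraries were the lowest.

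The direct contrast of the 2 vesicle groups called 1002 members higher and 1493 lower with MDA-MB-231 EV, beside 6.84% and 10.1% of all tested genes. Among them were, in the lists of the ER, 32 of 39 folding members and 29 of 44 entry and export members that were lower, and 11 of 15 of the ATF4 and CHOP list. For Hspa5 the difference was -0.60 ± 0.034 (limma adjusted p = 1.45e-08), and for Hyou1 -0.59 ± 0.036. The counts of this contrast moved more with the processing than those against PBS: without the second EV library it called 185 members higher and 530 lower, without the first 268 and 835, without the first and second MCF10A EV library 395 and 750 and 534 and 863, and without the first and second PBS library, which only add to the estimate of the spread, 612 and 1062 and 615 and 1060. The 2 contrasts share the MDA-MB-231 EV libraries, so their counts are given side by side only.

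**Figure D5:**
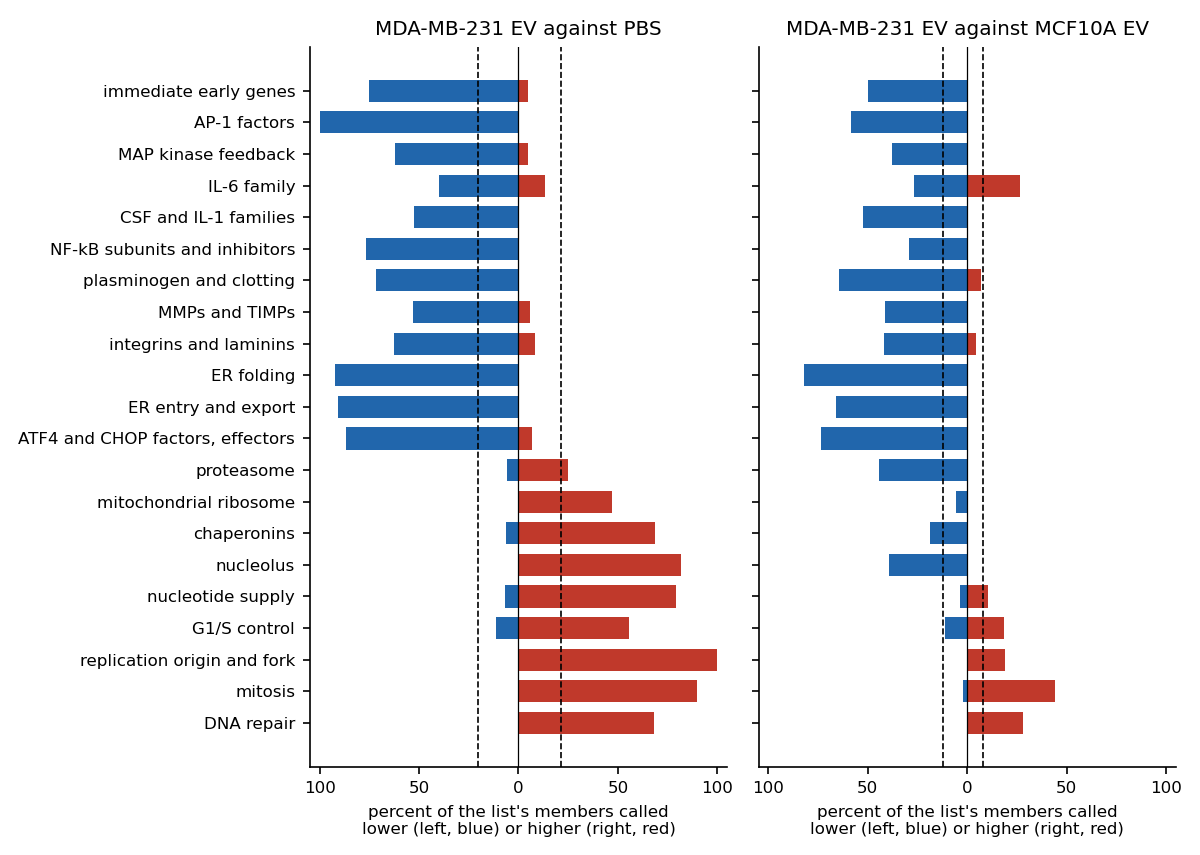
Percent of the members of 21 lists that were called lower (blue, to the left) or higher (red, to the right) with MDA-MB-231 EV against PBS (left panel) and against MCF10A EV (right panel), with dashed lines at the share over all 12318 members. The nucleolus list is red against PBS (31 of 38) and blue against MCF10A EV (15 of 38), and the ER lists are blue in both panels.

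Markers of other cell types were checked because several of the falls are of genes also known from leukocytes. Of 13 leukocyte markers 11 were in the table and 4 were members, and Ptprc, which encodes CD45, was at no more than 1.05 normalised reads in any library, with Cd3e, Emr1 and Tyrobp at 0 in all. The summed level of the list was 3397 and 3302 with PBS, 1932 and 1888 with MCF10A EV and 1085 and 1016 with MDA-MB-231 EV, most of it from Cd14 (3038 and 2946 to 1008 and 946), a co-receptor for bacterial lipopolysaccharide, and from Plek. Of 12 epithelial markers 4 were at 0 in all libraries, among them Epcam and Krt18, and 1, Krt8, was a member (43.5 and 48.7 with PBS, 23.4 and 33.9 with EV, not called). Their summed level was 48.9 and 49.6 with PBS, 40.7 and 36.2 with MCF10A EV and 29.5 and 39.3 with MDA-MB-231 EV. Of 10 endothelial markers 2 were members, and Cdh5, VE-cadherin, fell from 351 and 344 to 176 and 144, with Pecam1 at no more than 1.89 in any library and a summed level of 399 and 388 with PBS, 376 and 321 with MCF10A EV and 221 and 178 with MDA-MB-231 EV. The part of such cells in these results was not tested. Among the fibroblast markers 8 of 12 fell and 1 rose (median -0.19, which turned to 0.032 under quantile scaling). Thy1 (-0.39), Twist1 (-0.40) and P4ha1 (-0.52) fell and Col3a1, collagen III, rose from 3962 and 3973 to 5464 and 5434, with 6882 and 6889 after MCF10A EV. A call was gained by Krt8 (-0.62 with a pseudocount of 5, -0.69 with only members tested, -0.95 without EV 2 and -0.69 with edgeR).

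Some of the changed genes are neighbours in the order of RefSeq gene starts. On chromosome 1 Pla2g4a and Ptgs2, consecutive steps of prostaglandin synthesis, lie next to each other and both fell. On chromosome 2 Il1a and Il1b are adjacent and fell, as did Il1rn with its neighbours Il1f9 (-1.11), Il1f6 (-1.48) and Il1f5 (-0.99). Batf3 and Atf3 on chromosome 1 changed by -1.66 and -1.35 on the log2 scale. Among the rises Ifit1, Ifit2 and Ifit3, interferon-induced genes in a row on chromosome 19, rose by 0.97, 0.63 and 0.70, while Isg15, also interferon-induced, fell (-0.82). The longest runs of neighbours that changed at least 1.5-fold were 7 and 6 predicted genes on chromosome 10, which rose. Whether these are near-identical copies that share reads was not checked, so they may not be separate changes. These runs were picked after the values were seen, and no test was made of how often neighbours change together. Calls lost when 1 library was left out were those of Il1f5 (-0.76 to -1.22 without PBS 1, PBS 2, MCF10A 1, MCF10A 2, EV 1 or EV 2), Ifit1 (0.70 to 1.25 without PBS 1, PBS 2, EV 1 or EV 2), Ifit3 (0.53 to 0.78 without PBS 2, EV 1 or EV 2) and Isg15 (-0.76 to -0.88 without PBS 1, PBS 2, EV 1 or EV 2). Another scaling ended the call of Il1f5 (-0.93 with equal library totals and -0.88 with quantile scaling).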

How the data were processed

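The 6 NIH3T3 libraries were made with a Kapa stranded mRNA kit and sequenced. The authors' processing used TopHat2 and edgeR, with the build hg19, per the submitters' processing notes. The table lists mouse symbols, and the mouse build, read counter, strand and annotation have no mention in the sources used here. The deposited values are a signal, not raw counts: edgeR's quantile-adjusted reads at a common library size. With a relative tolerance of 1e-06, 122850 of 122850 values (100%) came back from whole reads, 22451173 to 29315530 a library, at which 3 reads correspond to 0.102 to 0.134 CPM.

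Values were tested as log2(value + 1) with limma 3.58.1 (trend, R 4.3.3) over 15025 genes at 1 or more in at least 2 of the 6 libraries, with Benjamini-Hochberg adjustment over all of them and no covariate. The fit had 3 residual and 11.5 prior degrees of freedom, and was tested on simulated data. The design was written for normalised values or counts, and the adjusted reads were tested as normalised values. Alternatives were other pseudocounts, filters, scalings, sets of libraries, a replicate block, each library left out, and edgeR 4.0.16 (quasi-likelihood) and DESeq2 1.42.0 on the recovered reads.

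Members and the 45 gene lists were chosen with earlier results of these data known. Named by rule were the 15 largest rises and falls without overlap and with a mean of at least 100, leaving out predicted genes, the 8 largest gains and losses in reads, the 10 genes with the most PBS reads, up to 4 called genes a list with a mean of at least 100, and genes of a count of 5 or fewer. Some of these are not reported here, and other genes named were chosen after their values were seen. Of 12316 member symbols 9330 had a RefSeq promoter (GRCm38.p6). Libraries of the same number did not deviate together (correlations -0.0111, -0.000815 and 0.0193 over 10314 members), so they were not paired.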

Additional observations from a re-analysis of the deposited data

How the results depend on the processing

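Against PBS the 2656 rises became 1543 with no filter on low values, 1555 with limma without a trend and 1754 with DESeq2, and the 2494 falls became 1614, 1642 and 1967. edgeR gave 2836 rises and 2713 falls. The 46 rises of at least 2-fold became 20 with a pseudocount of 5, 15 with no filter, 29 without a trend and 19 with DESeq2, while such falls, 193 in number, ran from 131 to 193 over the alternatives. Against MCF10A EV the 1002 higher members became 196 with no filter, 88 without a trend, 1764 with equal library totals, 620 in a fit of the 4 libraries alone and 577 with DESeq2, and the 1493 lower ones 444 with no filter, 236 without a trend and 937 with DESeq2. With each library left out in turn the counts ran from 1584 to 2425 (rises) and 1730 to 2336 (falls) against PBS, from 20 to 56 and 149 to 193 at 2-fold or more, and from 185 to 615 and 530 to 1062 against MCF10A EV. With the replicate number as a block, although the numbers pair nothing, the counts were 2631 and 2475, 46 and 190, and 1016 and 1498. Of 323 named genes 237 kept their side of the threshold in all 18 alternatives, 78 lost a call in at least 1, 7 gained one and 4 changed sign under quantile scaling (Col1a2 to 0.216, Eef1a1 to 0.212, Nckap1 to 0.00205 and the uncalled Il1rl1 to 0.245). With the replicate block Ctgf was called (1.02). The causes were not tested. Below a mean of 100 the larger standard errors limit what could be called.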
